A study of Mus musculus with 10 samples.

Results

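The endoplasmic reticulum folding and degradation genes are 33 named genes whose products carry proteins into the endoplasmic reticulum, fold them, remove those that fail to fold, or sense the load. They were chosen by name, and all 33 were found once each among the 27179 genes of the count table and passed the filter on low counts. Bulk RNA was read from whole livers of male C57BL/6 mice with floxed Lpcat3 alleles (Lpcat3f/f), either carrying Albumin-Cre (LKO) or without Cre (control). Both groups, 5 mice each with 1 library per mouse, had the floxed alleles and had eaten a diet that induces nonalcoholic steatohepatitis (NASH) for 12 weeks, so no group was on a normal diet. The albumin promoter drives Cre in hepatocytes, while RNA came from all cells of the liver. The labels give no age. Lpcat3 encodes an acyltransferase that places polyunsaturated fatty acids into membrane phospholipids, and the comparison asks how its loss in hepatocytes alters the liver transcriptome in steatohepatitis.

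Hepatocytes secrete most plasma proteins, and each of these enters the endoplasmic reticulum through the Sec61 channel. Inside, Hsp70- and Hsp90-type chaperones and the lectins calnexin and calreticulin hold the chain while disulfide isomerases pair its cysteines. Chains that fail are recognised by their trimmed sugars, drawn back through the membrane and tagged with ubiquitin by the Hrd1-Sel1L ligase. When unfolded protein accumulates, ATF6 and IRE1 (encoded by Ern1) signal to the nucleus, and IRE1 removes a short intron from Xbp1 mRNA, which gives the active transcription factor. ATF6 is activated by cutting and IRE1 by phosphorylation, so mRNA levels do not measure their activity, and counts per gene do not separate spliced from unspliced Xbp1.

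Many of these genes carry a shared promoter element, shown here because it is the sequence best known to be common to them. The endoplasmic reticulum stress element (ERSE), in which CCAAT and CCACG flank 9 bases of any kind, was defined from promoters of this family, so its presence is background and no finding of these data. RefSeq promoters (GRCm38.p6, 250 bases before to 50 after the start) were found for 27 of the 33 genes. Hyou1, Manf, Sec61a1, Ssr2, Derl1 and Atf6 had none there. Searched on both strands, the ERSE occurred in promoters of 10 of the 27 (37.0%), against 37 of all 27025 genes with a promoter (0.137%). Each site is given 5′ to 3′ with the CCAAT and CCACG blocks in capitals, and Hsp90b1 has 2.
Hspa5 chr2:34772020-34772048 (+): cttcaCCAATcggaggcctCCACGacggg
Calr chr8:84847070-84847098 (+): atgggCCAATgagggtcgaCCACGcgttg
Derl3 chr10:75893237-75893265 (-): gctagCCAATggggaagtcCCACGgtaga
Hsp90b1 chr10:86705633-86705661 (-): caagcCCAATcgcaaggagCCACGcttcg
Hsp90b1 chr10:86705528-86705556 (+): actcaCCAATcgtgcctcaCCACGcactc
Canx chr11:50325795-50325823 (-): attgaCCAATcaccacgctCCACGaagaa
Pdia6 chr12:17266486-17266514 (+): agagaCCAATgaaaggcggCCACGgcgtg
Ero1b chr13:12565677-12565705 (-): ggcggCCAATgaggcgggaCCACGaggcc
Dnajc3 chr14:118937822-118937850 (+): cacaaCCAATcagcgccaaCCACGacccg
Creld2 chr15:88819515-88819543 (-): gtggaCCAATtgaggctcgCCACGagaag
Syvn1 chr19:6046527-6046555 (+): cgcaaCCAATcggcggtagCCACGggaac
A second form, ERSE-II, with 1 base of any kind between ATTGG and CCACG, occurred in 2 of the 27 (7.41%) and in 12 of all genes (0.0444%). The whole element is in capitals here, no ERSE-II overlapped an ERSE, and neither gene held an ERSE.
Herpud1 chr8:94386371-94386393 (+): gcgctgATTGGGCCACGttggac
Dnajb11 chr16:22857846-22857868 (+): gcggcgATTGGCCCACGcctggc
The letters TGACGTGG, an XBP1-binding element (UPRE), were in none of the 27 windows and in 0.714% of all genes with a promoter. No match says only that these letters are not in the window.

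Libraries held 26914124 to 46727182 counts. Levels are CPM, counts divided by library size, with sizes scaled by the trimmed mean of M-values (TMM). Lpcat3 was lower in every LKO library, with 31.3 ± 4.65 CPM in LKO and 109 ± 13.3 CPM in control (SD, n = 5 each), a log2 fold change of -1.79 (SE 0.12, edgeR adjusted p = 0.000151). All 10 hepatocyte markers checked were detected in every library. Control 4 stood with the LKO libraries on the first principal component, and LKO 3 stood farthest from the controls, so counts are also given without them. Sample titles also hold a letter and number whose meaning is not stated: A54 for LKO 1, LKO 2 and control 1, A67 for the other LKO mice and A55 for the other control mice. Outside A54 this code and the genotype cannot be told apart. P-values set the difference between the groups against the spread between libraries within them.

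None of the 33 genes changed at an adjusted p under 0.05 (edgeR quasi-likelihood test, Benjamini-Hochberg over 15226 genes), where 0.0657% of all tested genes did. DESeq2 called 1 of them lower (Ern1, adjusted p = 0.046), beside 3.26% of the 15361 genes to which it gave an adjusted p. With limma voom, 5 were called lower (Calr, Sdf2l1, Derl2, Atf6 and Ern1), beside 6.11% of all tested genes. Relative to the bulk of genes the set leaned slightly low in LKO: 26 of 33 (78.8%) had a log2 fold change below 0 under TMM, against 50.5% of all tested genes, but when libraries were scaled to total counts 14 were lower and 19 higher. The median log2 fold change was -0.17 for the 33 genes and -0.0036 for all tested genes. Scaling to total counts shifted the median of all genes to 0.24, and relative to that median the members again stood at -0.17. At an unadjusted p under 0.05, 5 of 33 genes (15.2%) were lower and 0 higher, against 9.5% and 12.8% of all tested genes. These 5 were Ern1, Atf6, Derl3, Sdf2l1 and Derl2, and their edgeR adjusted p-values ran from 0.134 to 0.203. Under TMM, only Atf6 had all LKO libraries below all control libraries, which is 1 of 33, against 2.23% of all tested genes.

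**Figure D1:**
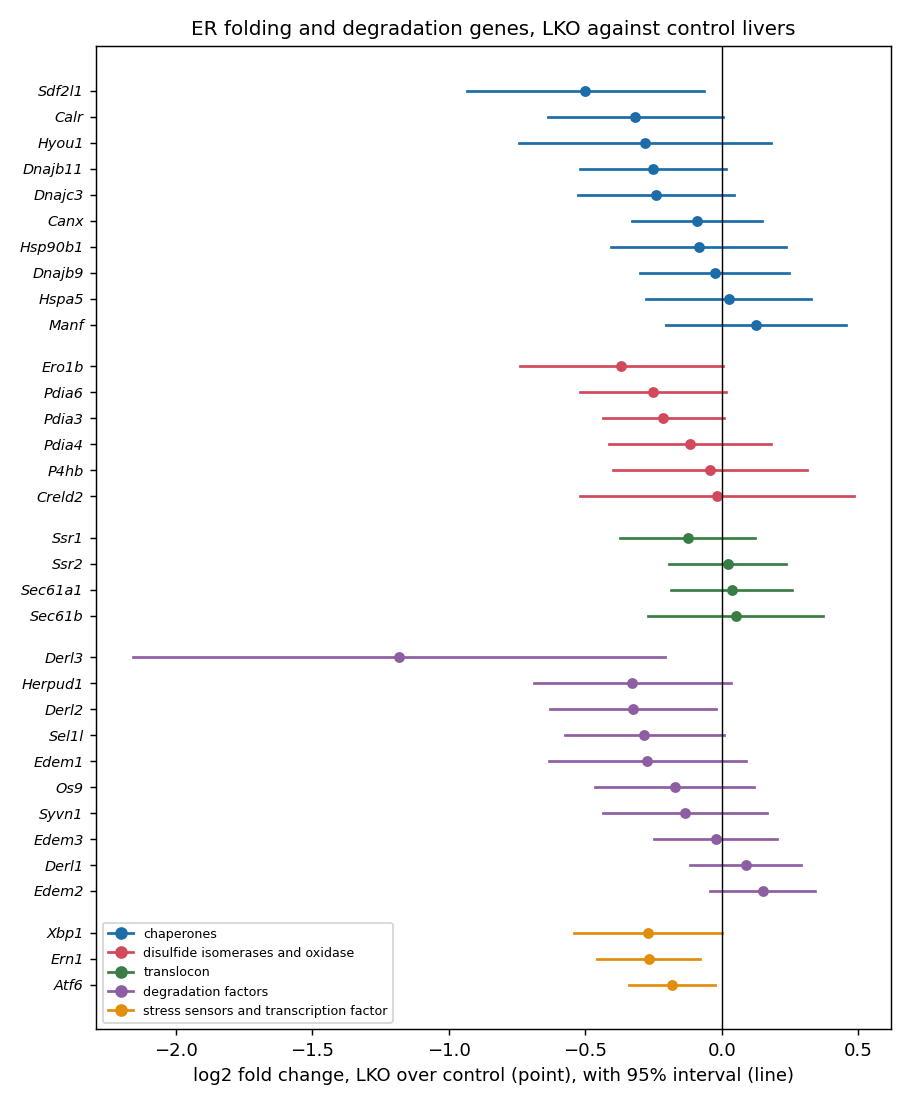
The log2 fold change of each gene, LKO over control under TMM scaling (x axis), with its 95% interval, grouped by role. Most points lie slightly left of 0, all but 5 of the 33 intervals include 0, and Derl3 lies farthest left with the widest interval. With total-count scaling 19 of the 33 points would lie right of 0.

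The stress sensors and their transcription factor had a median log2 fold change of -0.27 under TMM and -0.021 with total-count scaling. Ern1 (NCBI Gene 78943) encodes IRE1, the kinase and nuclease that cuts Xbp1 mRNA. It had 49.9, 52.4, 62.1, 49.99 and 57.2 CPM in LKO 1 to 5, against 65.8, 62.9, 70.7, 69.3 and 58.5 CPM in control 1 to 5. LKO 1, 2 and 4 were lowest, and the groups overlapped only because LKO 3 lay above control 5. Control 4 was among the highest here. Means were 54.3 ± 5.25 CPM in LKO and 65.5 ± 4.91 CPM in control (SD, n = 5 each), with a log2 fold change of -0.27 (SE 0.085, edgeR adjusted p = 0.134). Atf6 (NCBI Gene 226641), the membrane-bound factor released by cutting in the Golgi, had 124, 121, 119.8, 120.2 and 121 CPM in LKO 1 to 5, against 132, 137, 151, 126 and 141 CPM in control 1 to 5. Under TMM the LKO libraries lay within a narrow band, every one below control 4, the lowest control. The coefficient of variation was 1.28% in LKO and 7.06% in control, and the log2 fold change was -0.18 (SE 0.072, edgeR adjusted p = 0.178). With total counts its log2 fold change was 0.062. The groups then overlapped, since LKO 3 (4480 of 29127474 counts) lay above control 1 (3490 of 31830966). Xbp1 (NCBI Gene 22433) had 109, 126, 88.7, 117 and 110.4 CPM in LKO 1 to 5, against 159, 132, 142, 107 and 123 CPM in control 1 to 5. Control 1 was highest and LKO 3 lowest, and control 4 and 5 lay inside the LKO range, so the groups overlapped. Its log2 fold change was -0.27 (SE 0.12, edgeR adjusted p = 0.224).

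Averaged over Ern1, Atf6 and Xbp1, the mean log2 CPM relative to the control mean lay between -0.28 and -0.19 in LKO and between -0.11 and 0.12 in control. Under TMM this was the tightest group in LKO, with an SD of 0.040, against 0.099 in control. The TMM factors ran from 0.980 to 1.286 in LKO, and the SD with total counts was not computed. The 4 other role groups had SDs of 0.19 to 0.24 in LKO and 0.12 to 0.21 in control.

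The 10 chaperone genes had a median log2 fold change of -0.17, 8 lower and 2 higher under TMM, and 0.075 with total-count scaling. Sdf2l1 (NCBI Gene 64136), a partner of the J-domain protein ERdj3, had 10.1, 6.99, 5.54, 7.48 and 8.99 CPM in LKO 1 to 5, against 11.2, 14.7, 11.8, 7.22 and 10.4 CPM in control 1 to 5. Control 2 was highest and LKO 3 lowest, and control 4 lay among the LKO libraries. Means were 7.82 ± 1.77 CPM in LKO and 11.1 ± 2.69 CPM in control (SD, n = 5 each), with a log2 fold change of -0.50 (SE 0.20, edgeR adjusted p = 0.179). Calr (NCBI Gene 12317) encodes calreticulin, the soluble lectin chaperone of glycoproteins. It had 491, 421, 366, 525 and 464 CPM in LKO 1 to 5, against 566, 605, 597, 408 and 648 CPM in control 1 to 5. Apart from control 4, which lay below every LKO library but LKO 3, every control exceeded every LKO library. Its log2 fold change was -0.32 (SE 0.15, edgeR adjusted p = 0.227). Dnajb11 (NCBI Gene 67838), which encodes ERdj3 itself, had 72.6, 58.4, 51.6, 69.6 and 62.1 CPM in LKO 1 to 5, against 71.1, 81.0, 83.3, 58.3 and 80.9 CPM in control 1 to 5. LKO 1 lay above control 1, and control 4 lay just below LKO 2, so the groups overlapped (log2 fold change -0.25, SE 0.12, edgeR adjusted p = 0.24).

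Hspa5 (NCBI Gene 14828) encodes BiP, the Hsp70 of the compartment and its most used marker of stress. It had 367, 293, 349, 412 and 410.2 CPM in LKO 1 to 5, against 327, 435, 391, 284 and 361 CPM in control 1 to 5. Both groups spanned nearly the same range. Means were 366 ± 49.0 CPM in LKO and 359.7 ± 57.9 CPM in control (SD, n = 5 each), the 95% interval of the log2 fold change ran from -0.28 to 0.33, and the edgeR adjusted p was 0.926. Hsp90b1, the Hsp90 of the compartment, had 775 ± 101 CPM in LKO and 822 ± 132 CPM in control (SD, n = 5 each), a log2 fold change of -0.085. Canx, the membrane lectin calnexin, had 456 ± 42.3 CPM in LKO and 485 ± 48.5 CPM in control (SD, n = 5 each), a log2 fold change of -0.091. Dnajc3, a J-domain cochaperone, had 297 ± 39.8 CPM in LKO and 351 ± 48.6 CPM in control (SD, n = 5 each), a log2 fold change of -0.24. Hyou1, which exchanges the nucleotide of BiP, had a log2 fold change of -0.28 and the J-domain gene Dnajb9 at -0.026. Manf, a secreted factor that binds BiP, had the highest log2 fold change of the chaperones, 0.12. None of these 6 had an edgeR adjusted p below 0.286.

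All 6 genes of disulfide formation had a log2 fold change below 0 under TMM, with a median of -0.17, but the median was 0.074 with total-count scaling. Ero1b (NCBI Gene 67475), an oxidase that recharges the isomerases, had 66.1, 48.0, 36.8, 62.8 and 64.4 CPM in LKO 1 to 5, against 64.7, 84.9, 84.1, 58.7 and 66.3 CPM in control 1 to 5. LKO 2 and 3 were lowest and control 2 and 3 highest, while the other 6 libraries lay together. Its log2 fold change was -0.37 (SE 0.17, edgeR adjusted p = 0.228). Pdia3 (NCBI Gene 14827) encodes ERp57, the isomerase that works with calnexin and calreticulin. It had 295, 232, 246, 285 and 255 CPM in LKO 1 to 5, against 295, 339.6, 312, 270.4 and 306 CPM in control 1 to 5. LKO 1 matched control 1, LKO 4 lay above control 4, and control 2 was highest (log2 fold change -0.21, SE 0.10, edgeR adjusted p = 0.234). Pdia6 (NCBI Gene 71853), another isomerase, had 134, 114, 99.9, 140.5 and 132 CPM in LKO 1 to 5, against 142, 175, 151, 119 and 150.3 CPM in control 1 to 5. Control 4 again lay inside the LKO range, the other controls lay above it, and the log2 fold change was -0.25 (SE 0.12, edgeR adjusted p = 0.243). P4hb, the founding isomerase and also a subunit of the complex that loads lipid onto apolipoprotein B, had 1203 ± 226 CPM in LKO and 1239 ± 147 CPM in control (SD, n = 5 each), a log2 fold change of -0.043. LKO 3 stood alone among its libraries at 814 CPM, with the other 9 between 1069 and 1397 CPM. Pdia4, another isomerase, had a log2 fold change of -0.12, and Creld2, a stress-inducible gene placed here with the isomerases, at -0.017.

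The translocon was the one role group without a negative median, at 0.029, with 3 of 4 genes higher and 1 lower under TMM (all 4 higher and a median of 0.27 with total counts, and a median of -0.018 without control 4). Sec61a1 (NCBI Gene 53421), the pore of the channel, had 160.1, 147, 118, 157 and 142 CPM in LKO 1 to 5, against 144, 147, 148, 121 and 145 CPM in control 1 to 5. LKO 3 and control 4 were low and the other libraries lay close together (log2 fold change 0.036, SE 0.10, edgeR adjusted p = 0.85). Sec61b (NCBI Gene 66212), a small subunit of the channel, had 9.70, 10.1, 6.15, 10.1 and 9.02 CPM in LKO 1 to 5, against 9.97, 8.71, 9.25, 7.06 and 8.52 CPM in control 1 to 5. LKO 3 lay apart at the low end, and the other libraries of both groups overlapped (log2 fold change 0.050, SE 0.15, edgeR adjusted p = 0.857). Ssr1 (NCBI Gene 107513), a subunit of the translocon-associated protein complex, had 93.6, 83.6, 66.1, 95.1 and 83.3 CPM in LKO 1 to 5, against 87.1, 86.7, 99.7, 81.4 and 105 CPM in control 1 to 5. The ranges overlapped, with LKO 3 lowest and control 5 highest (log2 fold change -0.13, SE 0.11, edgeR adjusted p = 0.523). Ssr2, of the same complex, had 27.3 ± 2.50 CPM in LKO and 26.9 ± 3.18 CPM in control (SD, n = 5 each). The 95% intervals of the 4 log2 fold changes lay between -0.37 and 0.37.

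Degradation factors had a median log2 fold change of -0.22, 8 lower and 2 higher of 10 under TMM, against 0.019 with total counts. Derl3 (NCBI Gene 70377), one of the derlins through which failed proteins leave, was the least abundant member and had the widest spread. It had 2.48, 1.12, 0.829, 2.32 and 1.43 CPM in LKO 1 to 5, against 2.57, 7.90, 3.04, 1.42 and 3.65 CPM in control 1 to 5. Control 2 was far above all others, control 1 lay just above LKO 1, and control 4 lay inside the LKO range. Means were 1.64 ± 0.731 CPM in LKO and 3.72 ± 2.48 CPM in control (SD, n = 5 each), with a log2 fold change of -1.18 (SE 0.44, edgeR adjusted p = 0.166), and the log2 fold change was -0.71 without control 2. Its counts ran from 31 to 225 per library. Derl2 (NCBI Gene 116891) had 43.0, 48.3, 34.5, 46.4 and 39.7 CPM in LKO 1 to 5, against 56.4, 63.4, 56.9, 37.6 and 51.1 CPM in control 1 to 5. Only control 4 came down among the LKO libraries, below 4 of them, and the log2 fold change was -0.32 (SE 0.14, edgeR adjusted p = 0.203). Sel1l (NCBI Gene 20338), the adaptor of the ubiquitin ligase, had 174, 141, 109, 146 and 149 CPM in LKO 1 to 5, against 174, 198, 187, 139 and 178 CPM in control 1 to 5. LKO 1 matched control 1, and control 4 lay within the LKO range (log2 fold change -0.28, SE 0.13, edgeR adjusted p = 0.23).

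The log2 fold changes of the remaining degradation genes ran from -0.33 (Herpud1, which organises the ligase in the membrane) to 0.15 (Edem2, a mannose-trimming factor). Herpud1 had 242 ± 49.3 CPM in LKO and 304 ± 51.3 CPM in control (SD, n = 5 each), edgeR adjusted p = 0.258. The 3 Edem genes, whose products trim mannose from glycoproteins bound for degradation, had log2 fold changes of -0.27 for Edem1, 0.15 for Edem2 and -0.023 for Edem3 (0.21 with total counts). Derl1, the remaining derlin, had a log2 fold change of 0.087, and no test of the difference between derlins or between Edem genes was made. Syvn1, the Hrd1 ligase itself, had 23.2 ± 4.11 CPM in LKO and 25.5 ± 3.82 CPM in control (SD, n = 5 each), and Os9, the lectin that reads trimmed sugars, 271 ± 39.1 CPM in LKO and 306 ± 41.0 CPM in control (SD, n = 5 each). Derl2 overlaps Mis12 and Syvn1 overlaps Mrpl49 in the annotation, as do Hspa5 and Rabepk, and no source used here says how the counting treated such overlaps.

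**Figure D2:**
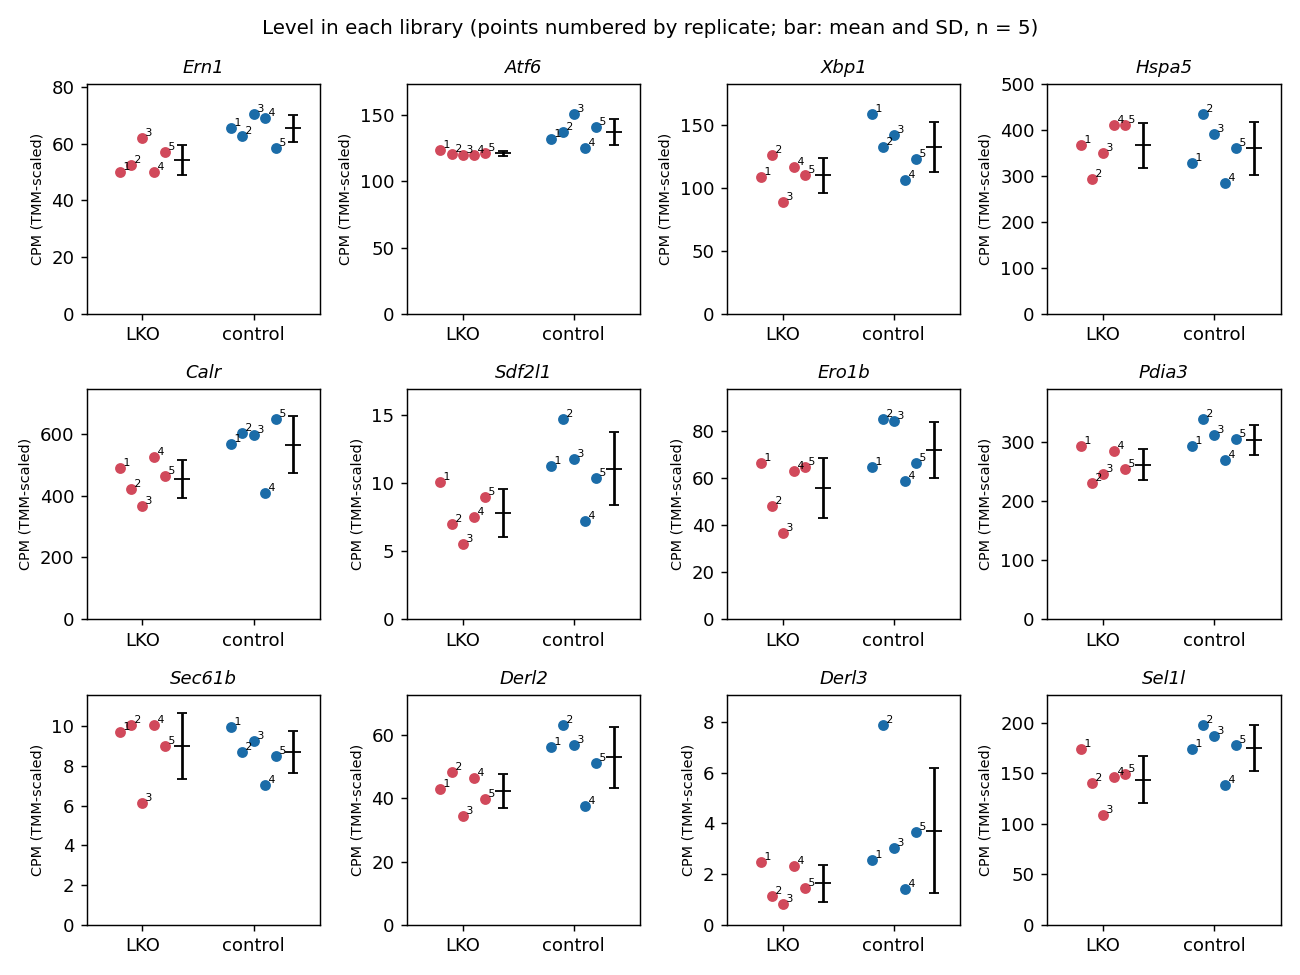
TMM-scaled CPM (y axes, from 0) of 12 genes in each LKO and control library, numbered by replicate, with the mean and SD (n = 5) beside each group. Only for Atf6 do all 5 LKO libraries (119.8 to 124 CPM) lie below all 5 controls (126 to 151 CPM), and control 4 lies low in most panels.

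Levels per length, in CPM per kilobase of merged exons, differed far more between genes than between groups. P4hb was highest at 420.4 ± 78.9 in LKO and 433 ± 51.4 in control (SD, n = 5 each). Hsp90b1 followed at 192 ± 25.0 in LKO and 204 ± 32.7 in control, then Calr at 157 ± 21.5 in LKO and 196 ± 32.1 in control. In control, Herpud1, Os9, Canx, Pdia3, Pdia4 and Hspa5 came next, between 85.1 and 130.4 CPM per kilobase, and neighbours in this order lay within 1 SD of each other. The sensors lay below the abundant chaperones, with Atf6 at 13.1 ± 0.168 in LKO and 14.9 ± 1.05 in control and Ern1 at 6.65 ± 0.642 in LKO and 8.01 ± 0.601 in control. Syvn1 stood at 4.77 ± 0.846 in LKO and 5.24 ± 0.785 in control and Derl3 lowest at 0.821 ± 0.367 in LKO and 1.86 ± 1.24 in control. Among the translocon genes Sec61a1 led, at 21.5 ± 2.50 in LKO and 21.0 ± 1.69 in control, and Sec61b had 7.09 ± 1.30 in LKO and 6.84 ± 0.846 in control.

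**Figure D3:**
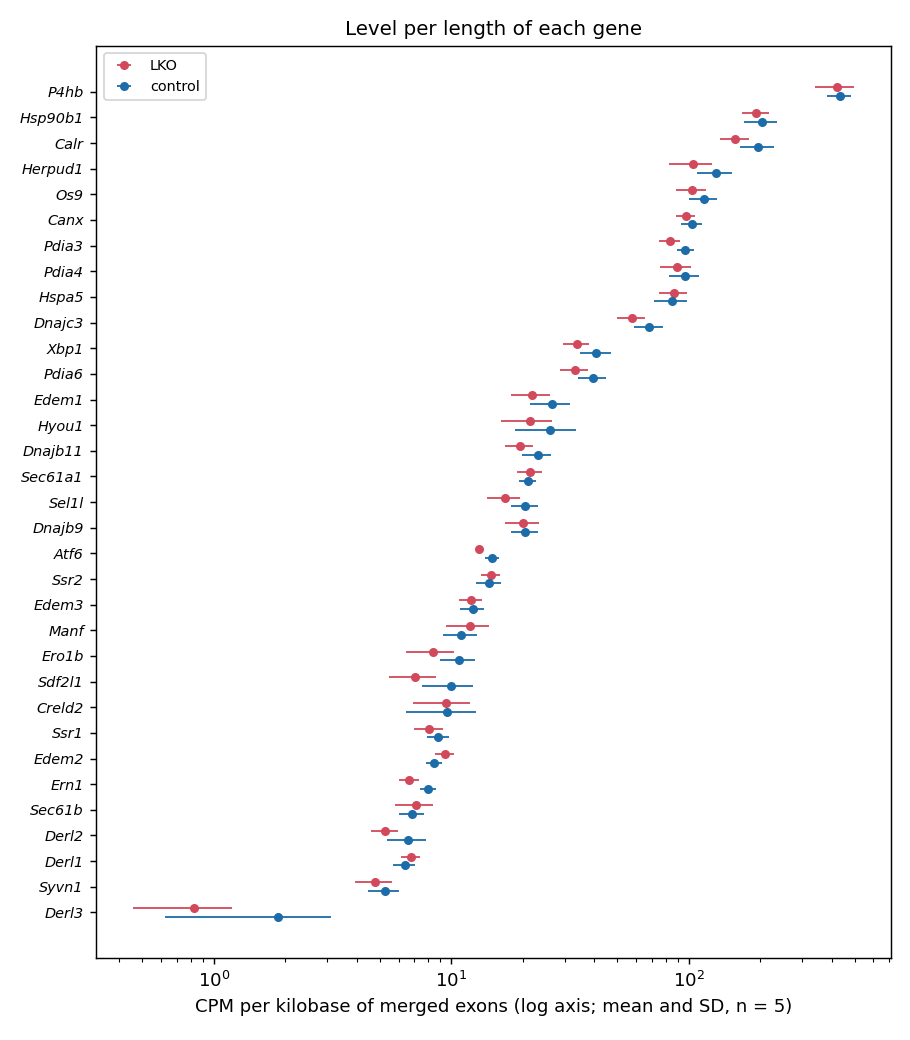
Mean level per length (x axis, log scale, CPM per kilobase of merged exons, with SD, n = 5) of the 33 genes in LKO and control, ordered by the control mean. The genes run from P4hb, above 400 CPM per kilobase in both groups, to Derl3, below 2, and the SDs of both groups overlap for most genes.

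Chaperones, isomerases and degradation factors shared the same high and low libraries. The translocon mean was also lowest of its group in LKO 3 (-0.36) and control 4 (-0.21). Control 2 was the highest control for 16 of the 33 genes and control 4 the lowest for 25, while LKO 3 was the lowest LKO library for 22. The mean log2 CPM over all 33 genes, relative to the control mean, was -0.041, -0.26, -0.44, -0.018 and -0.11 in LKO 1 to 5 and -0.0069, 0.20, 0.070, -0.28 and 0.020 in control 1 to 5. Every control but control 4 exceeded every LKO library in this mean, LKO 1 and 4 lay just below control 1, and control 4 lay with LKO 2. For 29 of the 33 genes control 4 fell within the LKO range. The shares of all tested genes with these library orders were not computed, so the orders may not be particular to these genes. In the mean of the sensors and Xbp1, LKO 3 and control 4 were again the lowest of their groups, while LKO 4, the library with the highest chaperone mean in its group (0.021), stood at -0.25.

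**Figure D4:**
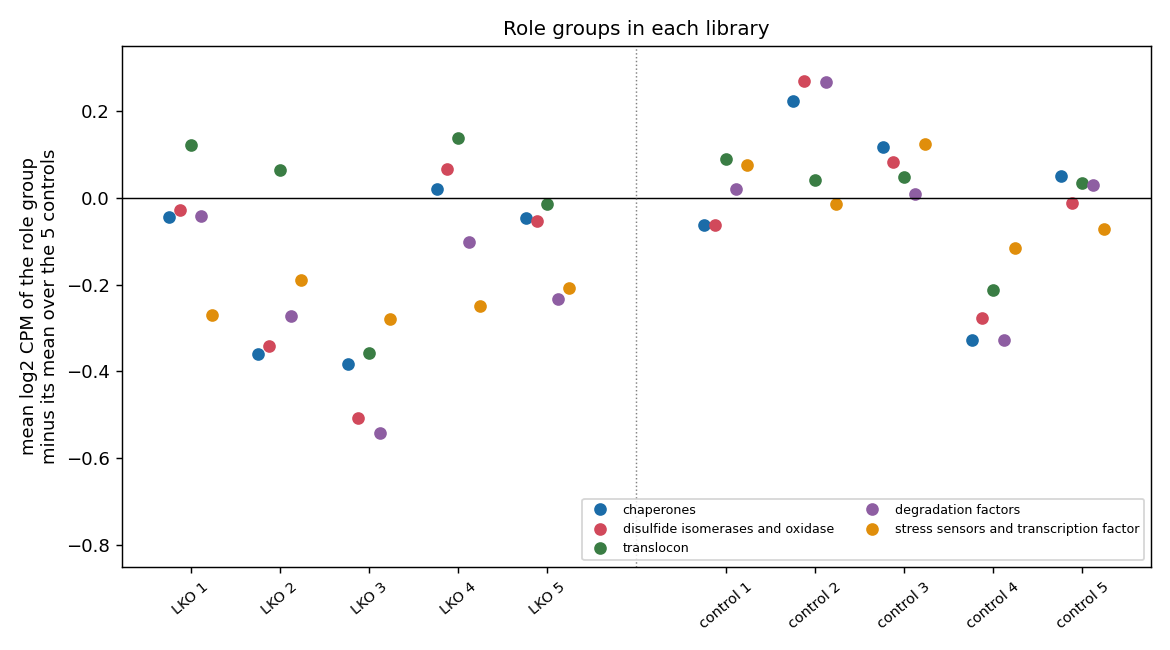
Mean log2 of TMM-scaled CPM of each role group in each LKO and control library, minus its mean over the 5 controls (y axis). Control 2 is high and control 4 and LKO 3 are low in chaperones, isomerases and degradation factors. Control 4 and LKO 3 are also the lowest of their groups in the translocon. The stress sensors lie between -0.28 and -0.19 in every LKO library.

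Without control 4, 30 of the 33 genes had a log2 fold change below 0 and 4 passed as lower in LKO at an edgeR adjusted p under 0.05, where 4.75% of all tested genes did. They were Calr (-0.41, adjusted p = 0.0449), Sdf2l1 (-0.62, adjusted p = 0.0372), Derl2 (-0.43, adjusted p = 0.0268) and Derl3 (-1.39, adjusted p = 0.0419). Since control 4 lies among the LKO livers, its removal alone makes the groups differ more and adds no separate evidence. Without any other single library 0 members passed. With both control 4 and LKO 3 left out, Ern1 passed beside these 4 and 26 of 33 genes were lower, where 5.73% of all tested genes passed as lower. Both libraries were picked by their place in these same data, so this fit adds no separate evidence either. Within code A54, the median over the 33 genes was -0.12 for LKO 1 and 2 against control 1, with 25 lower and 8 higher and no test. The median of all tested genes there was -0.0092. Every value uses control 1 as its only control, so the genes are not independent comparisons.

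The summed level of the 10 hepatocyte markers was 41727 to 62945 CPM in LKO and 47540.4 to 85239 CPM in control, with control 4 at 47540.4 and LKO 3 at 41727 CPM. All 10 had a log2 fold change below 0, with a median of -0.48 (8 of 10 and -0.22 with total counts). At an unadjusted p under 0.05, 3 were lower, against 9.5% of all tested genes, and 0 passed at an adjusted p under 0.05 (edgeR). DESeq2 called 1 of the 10 lower (3.26% of genes with an adjusted p), voom 4 (6.11%), and edgeR without control 4 called 3 (4.75%). Macrophage markers summed to 475 to 914 CPM in LKO and 278 to 664 CPM in control, with 9 of 10 higher in LKO, and stellate cell and fibroblast markers to 594 to 1288 CPM in LKO and 409 to 906 CPM in control, with 10 of 10 higher. In both lists LKO 3 was the highest LKO library and control 4 the highest control. Cholangiocyte markers (7 of 8 higher) summed to 66.3 to 442 CPM in LKO and 58.2 to 217 CPM in control, and Cftr had 0 counts in at least 1 library. Sinusoidal endothelial markers (8 of 8 higher) summed to 398 to 629 CPM in LKO and 399 to 469.5 CPM in control. Neutrophil markers (3 of 3 tested higher) summed to only 6.47 to 10.9 CPM in LKO and 3.23 to 7.99 CPM in control, with Ly6g, Retnlg and Mpo at 0 in at least 1 library. In these lists, from macrophage to neutrophil, 0 markers passed at an adjusted p under 0.05 (edgeR). Of all tested genes, 50.5% had a log2 fold change below 0. Spp1 was in both the macrophage and the cholangiocyte list, and values with total counts are not given for these lists. Plasma cells express many of the 33 genes at a high level. The 9 B and plasma cell markers other than Xbp1 summed to 3.004 to 5.24 CPM in LKO and 2.58 to 4.23 CPM in control. Of the 6 tested, 5 were higher and 1 lower in LKO, and Tnfrsf17 had 0 counts in at least 1 library. In whole liver RNA, fewer hepatocytes and less RNA per hepatocyte cannot be told apart, and the part of cell makeup in the values of the 33 genes was not tested.

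Under TMM, the 10 genes with an ERSE in the promoter had a median log2 fold change of -0.19, 9 lower and 1 higher (0.050, 5 lower and 5 higher with total counts). The 17 others with a promoter had a median of -0.21, 15 lower and 2 higher (0.025, 8 lower and 9 higher with total counts). With 1 gene at an unadjusted p under 0.05 of 10 and 3 of 17, both counts were small, and no test between them was made.

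A list of 106 other names of the same pathway gave 100 tested genes, since 4 names were second spellings of listed genes and 2 genes had low counts. Of the 100, 61 were lower and 39 higher in LKO under TMM, the median log2 fold change being -0.038, and 10 lower and 90 higher with total counts. No gene passed at an adjusted p under 0.05 with edgeR, while DESeq2 called 1 lower and 3 higher and voom 4 lower and 5 higher. Of all genes with an adjusted p, DESeq2 called 1142, with 501 of 15361 lower (3.26%), and voom called 2460, with 930 of 15226 lower (6.11%). At an unadjusted p under 0.05 (edgeR) there were 8 lower and 8 higher, below the shares of 9.5% and 12.8% over all tested genes. The 4 lower genes with the smallest p were Tmx4 (-0.36) and Tmx2 (-0.24), membrane thioredoxin-type proteins, the lectin gene Erlec1 (-0.25) and the oxidase gene Ero1a (-0.20, 0.036 with total counts). Tmx4 had 23.9 ± 1.6 CPM in LKO and 30.7 ± 3.88 CPM in control (SD, n = 5 each), all LKO libraries below all controls, edgeR adjusted p = 0.106. This held for 1 of the 100, against 2.23% of all tested genes. In the other direction 1 of the 100, Tusc3, had all LKO libraries above all controls, against 1.72%. Ero1a, a relative of Ero1b that is more widely expressed, had 19.4 ± 1.58 CPM in LKO and 22.2 ± 0.889 CPM in control (SD, n = 5 each). The 4 higher genes were Stt3b (0.34) and Ostc (0.33) of the sugar-transferring complex, Serpinh1 (1.25) and Trib3 (0.71). Without control 4, 3 of the 100 passed as lower and 4 as higher, among them Tmx4 (adjusted p = 0.0156), Serpinh1 (0.0237), Stt3b (0.0443) and Eif2ak3 (0.0355). Of all genes 2296 passed in that fit, with 728 of 15327 lower (4.75%).

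Serpinh1, the chaperone of collagen, had 17.1, 18.3, 55.2, 20.3 and 28.8 CPM in LKO 1 to 5, against 9.02, 12.3, 7.39, 17.7 and 12.4 CPM in control 1 to 5. LKO 3 was highest, control 4 was the highest control, and only control 4 overlapped the LKO range, at the level of LKO 1 (edgeR adjusted p = 0.11). Collagen is made mainly by stellate cells in liver, whose marker sum, which includes collagen genes, was also highest in LKO 3. The part of stellate cells in the Serpinh1 values was not tested. The PERK branch of the response gave a mixed set of values. Eif2ak3, which encodes PERK, had 22.4 ± 4.38 CPM in LKO and 17.3 ± 3.64 CPM in control (SD, n = 5 each), a log2 fold change of 0.37 (edgeR adjusted p = 0.213). Its effector Atf4 had 27.6 ± 2.90 CPM in LKO and 27.6 ± 2.21 CPM in control (SD, n = 5 each), edgeR adjusted p = 0.997. The downstream Ddit3, which encodes CHOP, had 5.14 ± 1.80 CPM in LKO and 3.87 ± 0.463 CPM in control (SD, n = 5 each), and LKO 3 was its highest library at 7.44 CPM.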

How the data were processed

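Bulk RNA-seq counts from 5 LKO and 5 control livers were analysed. Per the labels' protocols, RNA was freed of ribosomal RNA with FastSelect, and stranded Kapa libraries were read from 1 end for 101 cycles on 1 NovaSeq lane. The authors deposited raw whole-number counts per NCBI Gene number. Build GRCm39, bcl2fastq 2.20 and DESeq2 are listed per the submitters' processing notes. No source used here gives the aligner, the counter, the strand setting or the annotation, so reads of overlapping or near-identical genes may have been split or dropped. Symbols for 25275 of 27179 genes came from a RefSeq table (GRCm38.p6), and exon lengths from GENCODE M21.

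Differences were tested with edgeR 4.0.16 in R 4.3.3 (filterByExpr, TMM, quasi-likelihood F test with legacy dispersion, two-sided, Benjamini-Hochberg over 15226 genes). SEs and intervals derive from the F statistic. Alternatives were other scalings and filters, DESeq2 1.42.0, limma 3.58.1 voom with quality weights, a block for replicate number, a covariate for the title code, and fits without single libraries. The fit was run on simulated counts with known changes and independent noise. Those changes were larger than the ones of most members, so the run does not measure power for these genes. No 2 libraries of a group agreed within sampling noise (lowest chi-square per degree of freedom 32.1 in LKO and 47.5 in control).

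The members and lists were chosen with earlier results of these data known. Named in full were members under an adjusted p of 0.05, the 3 of each role with the smallest p, and Hspa5, Xbp1, Atf6 and Ern1. Of the other pathway genes, the 4 with the smallest p in each direction and Atf4, Ddit3 and Eif2ak3 were named. Tusc3 was added because its groups did not overlap. All 10 columns were used, and 0 were not.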

Additional observations from a re-analysis of the deposited data

Results flagged for a closer look

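Of 66 groups of 5 libraries, 2 for each of the 33 genes, 4 held a library whose gap to the nearest other was above the 95% critical value of 0.71 for the share of the whole range (Dixon's test). Chance flags about 1 in 20 groups. Sec61b in LKO 3 stood at 6.15 CPM, with the nearest library at 9.02 CPM, and Derl1 in LKO 3 stood at 19.0 CPM, with the nearest library at 22.5 CPM. Sec61a1 in control 4 stood at 121 CPM, with the nearest library at 144 CPM, and Edem1 in control 4 stood at 115 CPM, with the nearest library at 176 CPM. All 4 lay at the low end of their group.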

How the results depend on the processing

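The fit with the replicate number as a block called 2 genes in all and 0 members, with 2 members lower at an unadjusted p under 0.05, against 5 without the block (7.72% and 9.5% of all genes). Same-numbered libraries did not deviate together (correlations of -0.40 to 0.42, and 1 of 5 LKO libraries correlated best with its own number), so the numbers were not taken as pairs. Genes called in all numbered 10, but 31 without a filter, 20 with at least 1 CPM in 5 libraries, 1142 by DESeq2, 2460 by voom, 2363 without control 4 and LKO 3, and 0 with the title code, where 760 had an unadjusted p under 0.05. With 1 library left out they ran from 2 to 2296 (without control 4), genes at an unadjusted p under 0.05 from 2310 to 5068, members called lower from 0 to 4, and members lower at an unadjusted p under 0.05 from 2 (without control 2 or 3, 7.49% and 6.29% of all genes) to 15 (without control 4, 14%). Members called lower were 1 by DESeq2, 5 by voom and 5 without both libraries. Members lower at an unadjusted p under 0.05 were 9 with DESeq2 size factors (10.2% of all genes), 1 with total counts (1.92%, with 6 members and 24.7% of all genes higher), 10 by DESeq2 (6.95%), 15 by voom (15%), 0 with the title code (1.9%) and 15 without both libraries (13.9%). The DESeq2 share is over 25912 genes, low-count genes included, and the other shares are over 15150 to 15226 filtered genes. It is therefore not comparable with the others. No member was called higher in any of these fits. With total counts, medians were 0.067 for all members, 0.075 for chaperones, 0.27 for the translocon, 0.019 for degradation factors and -0.021 for the sensors, and these genes changed sign: Hsp90b1 (0.17), Canx (0.15), Dnajb9 (0.22), Pdia3 (0.025), Pdia4 (0.12), P4hb (0.18), Creld2 (0.24), Ssr1 (0.10), Edem3 (0.21), Os9 (0.067), Syvn1 (0.10), Atf6 (0.062) and Ero1a (0.036). Other sign changes were Hspa5 (-0.072) and P4hb (0.0022) by voom, P4hb (0.23), Sec61b (-0.011), Ssr1 (0.025), Ssr2 (-0.089), Edem3 (0.0067), Atf4 (-0.11) and Ddit3 (-0.24) with the title code, Hspa5 (-0.036) and P4hb (0.030) without both libraries, and Atf4 (-0.0033, -0.0075 and -0.0021) with DESeq2 size factors, DESeq2 and the block. With 1 library left out, medians ran from -0.22 to -0.14 (all members), -0.24 to -0.10 (chaperones), -0.22 to -0.11 (isomerases), -0.018 to 0.084 (translocon), -0.31 to -0.17 (degradation) and -0.30 to -0.20 (sensors). Genes that changed sign there ran from -0.049 to 0.10 (Hspa5), -0.099 to 0.044 (Dnajb9), -0.096 to 0.063 (P4hb), -0.18 to 0.19 (Creld2), -0.015 to 0.097 (Sec61a1), -0.017 to 0.16 (Sec61b), -0.020 to 0.071 (Ssr2), -0.083 to 0.046 (Edem3), -0.056 to 0.034 (Atf4). Lpcat3 had an adjusted p of 0.0565 with the title code and stayed below 0.05 in the other fits. The cause of these shifts was not tested.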

Other observations

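Outside the 33 genes, 27 others held an ERSE in their promoter and 11 of these were tested, 6 lower and 5 higher in LKO, the median log2 fold change being -0.013. At an unadjusted p under 0.05, 0 were lower and 3 higher, against 9.5% and 12.8% of all tested genes. At an adjusted p under 0.05, 0 passed (edgeR). The 3, named after their values were seen, were Acacb, an acetyl-CoA carboxylase gene, at 169 CPM in LKO and 74.3 CPM in control (log2 fold change 1.19), Spats2l (1.07) and the zinc finger gene Zfp57 (1.08). Spats2l had 4.39 CPM in LKO and 2.08 CPM in control. Zfp57 had only 1.05 CPM in LKO and 0.494 CPM in control. With the filter of at least 1 CPM in 5 libraries, Zfp57 was not tested. DESeq2 called 1 of the 11, Acacb, and 1142 of 15361 genes in all. All 3 passed by voom, which called 2460 of 15226 genes, and without control 4, where 2296 of 15327 passed. As the 3 were picked by their values, these calls add no separate evidence. The edgeR adjusted p-values of the 3 with all libraries were 0.12, 0.205 and 0.156.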
